A study of Bos taurus with 4 samples.

Results

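The genes of the Notch pathway described here were 10 in number: the receptors NOTCH1, NOTCH2, NOTCH3 and NOTCH4, the ligands DLL1, DLL4, JAG1 and JAG2, the target HES1, and ATOH1, the transcription factor that HES1 represses. They were chosen by symbol, each had exactly 1 row, and together they were 10 of the 29792 gene rows counted in each library. Notch signals between neighbouring cells. A Delta-like (DLL) or Jagged (JAG) ligand on one cell binds a Notch receptor on the next, the receptor is cut within the membrane by γ-secretase, and its freed intracellular part joins the DNA-binding protein RBPJ to switch on targets such as HES1. In the intestinal crypt, cells that receive the signal carry HES1, which represses ATOH1, and remain stem cells or become absorptive enterocytes. Cells that keep ATOH1 become secretory cells (goblet, enteroendocrine and Paneth cells and, by some accounts, tuft cells) and present DLL ligands to their neighbours. NOTCH1 and NOTCH2 are the receptors known to act in crypt cells, while NOTCH4 and DLL4 are also known from endothelium and NOTCH3 from the smooth muscle and pericytes of vessel walls.

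RNA was measured in 4 bovine libraries, 1 each of intestine tissue, muscle tissue, intestinal organoids at passage 5 (P5) and intestinal organoids at passage 10 (P10). All were labelled as from Hanwoo cows, a Korean cattle breed, with the crypts taken from the jejunum of healthy animals over 24 months old, embedded in Matrigel, a basement membrane gel, and grown in Intesticult medium. The labels give neither genotype differences nor added agents, do not name the muscle, and do not say whether the tissues and the 2 organoid libraries came from 1 animal, so passage and animal cannot be told apart. Crypt organoids are epithelium grown without the vessels, stroma and immune cells of the gut wall.

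The libraries were made with a 3′ counting kit, in which each read marks the end of an RNA, so reads were not divided by gene length. With 1 library per condition there was no replicate and no test, and every difference below is one between 2 libraries. Levels are given as scaled CPM, counts per 1000000 reads (CPM) with the library totals scaled by the trimmed mean of M-values (TMM). Brackets hold 95% intervals, Wilson intervals for levels and exact conditional intervals for folds. They cover counting error only and hold no variation between samples. As PCR copies were not marked, they may be too narrow even for counting error. A gene was called higher or lower where the levels differed at least 2-fold and the higher library had at least 10 reads, with 0 to 3 reads set to 3 for the call. As each library is a whole sample, fewer cells of a type and less RNA per cell cannot be told apart.

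Totals ranged from 12917720 to 17776273 reads, and the 10 genes took 3509 reads of intestine, 2933 of muscle, 4776 of the P5 and 5223 of the P10 organoids. The muscle library stood apart: RN18S1, a ribosomal RNA, took 23.6% of its reads against 0.264% to 4.81% elsewhere, and its TMM factor was 0.549 against 1.11 to 1.31, so folds against muscle move with the scaling more than those among the other libraries. Markers went with the labels. Muscle had 89312 summed scaled CPM of 8 skeletal muscle genes against 1.67 to 3.30 elsewhere, and EPCAM, an epithelial adhesion molecule, had 5725 reads in intestine, 14156 in P5 and 10244 in P10 organoids. The 11 enterocyte genes had 1092 reads in muscle, 0.191% of those in intestine. The 9 epithelial genes summed to 1892 scaled CPM in intestine, 64.1 in muscle, 8498 at P5 and 7350 at P10, the 7 fibroblast genes to 915, 2345, 3.12 and 0.258, and the 7 immune genes to 1384, 149, 12.3 and 15.1. Among defining intestinal genes, CDX2 had 4 reads in intestine and ALPI had 0 in both organoid libraries. Between the organoid libraries the enterocyte genes differed most, with 3937 summed scaled CPM at P5 and 178 at P10, while the 7 stem cell genes had 709 and 2535 and the 7 proliferation genes 439 and 764. LGR5, the stem cell receptor, had few reads throughout (23 in intestine, 3 in muscle, 34 in P5 and 9 in P10 organoids). The plot of marker lists shows these sums.

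**Figure D1:**
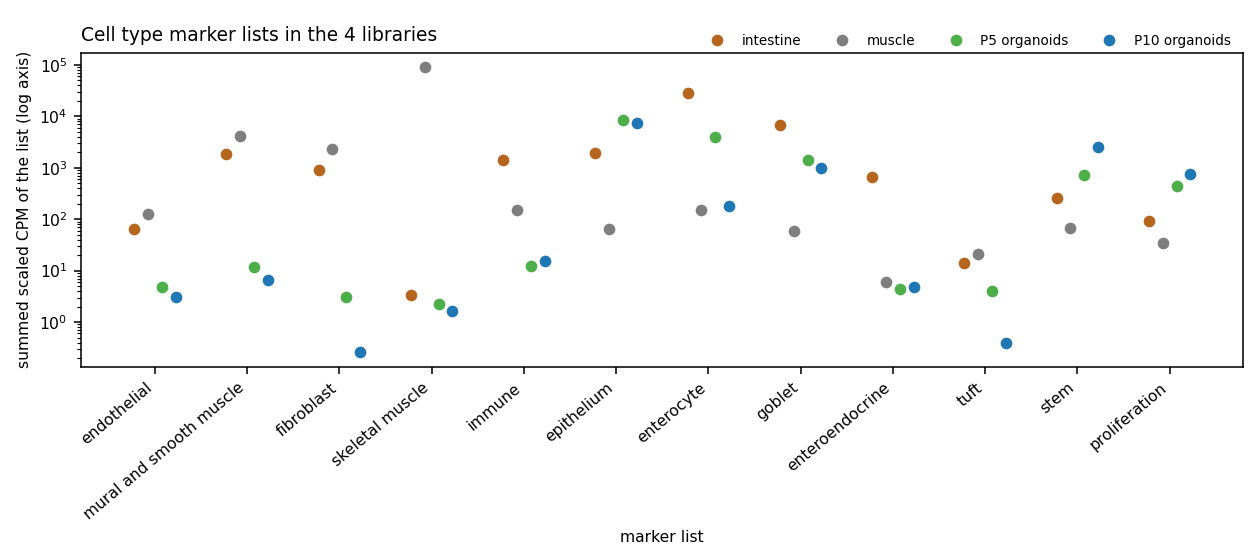
Summed scaled CPM (log axis) of each cell marker list, 1 point per library. The endothelial, mural and fibroblast lists are low in both organoid libraries, the epithelial list is high in them, and the enterocyte list is far lower at P10 than at P5.

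NOTCH1, a receptor of crypt progenitors, was the receptor that set the P10 organoids apart. It had 5.78 (4.81–6.95) scaled CPM in intestine, 4.23 (2.96–6.04) in muscle, 7.71 (6.50–9.15) at P5 and 47.4 (44.7–50.3) at P10, from 114, 30, 131 and 1104 reads. The P10 level lay far above the other libraries, which lay close together, and the intestine and muscle levels did not differ beyond counting error. In P10 organoids NOTCH1 was 6.15-fold (5.13–7.43) higher than in P5 organoids and 8.20-fold (6.75–10.03) higher than in intestine. Of all genes tested between the organoid libraries, 1.85% had a ratio as high. At P5 it was only 1.33-fold (1.03–1.73) above intestine.

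NOTCH2, the other receptor known from crypt cells, was highest in intestine and, unlike NOTCH1, lower in both organoid libraries than there. Its levels were 36.9 (34.3–39.7) scaled CPM in intestine, 30.6 (26.8–34.9) in muscle, 11.8 (10.3–13.6) in P5 and 17.1 (15.5–18.8) in P10 organoids, and all neighbours in this order were separated by more than counting error. P10 organoids were 1.44-fold (1.22–1.72) above P5 organoids, the same direction as for NOTCH1, and the order of muscle and P10 organoids changed with the scaling. NOTCH2 was 3.12-fold (2.66–3.66) lower in P5 organoids and 2.16-fold (1.91–2.44) lower in P10 organoids than in intestine. The P10 fold against intestine passed below 2-fold when library totals were used as the scale, so its call depended on the scaling. Per NOTCH2 read there were 0.157 NOTCH1 reads in intestine, 0.138 in muscle, 0.652 in P5 and 2.77 in P10 organoids. This ratio within a library does not change under any scaling that uses a single factor per library.

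NOTCH3, known from vessel-wall smooth muscle and pericytes, was counted in all libraries, the organoids included. Its levels were 6.14 (5.14–7.33) scaled CPM in intestine, 10.4 (8.31–13.1) in muscle, 3.88 (3.05–4.94) in P5 and 13.8 (12.4–15.4) in P10 organoids, so the organoid libraries held both the lowest and the highest value. P10 organoids were 3.56-fold (2.72–4.71) above P5 organoids and 2.25-fold (1.82–2.80) above intestine, whereas P5 organoids were 1.58-fold (1.16–2.17) below intestine. The 10 mural and smooth muscle markers, which include PDGFRB, RGS5 and MYH11, summed to 1845 scaled CPM in intestine, 4162 in muscle, 11.5 in P5 and 6.44 in P10 organoids. Of these, MYH11, a smooth muscle myosin, had 101 reads at P5 and 100 at P10, RGS5 had 1 in each, and PDGFRB, the pericyte receptor, had 14 and 0. MCAM, DES and KCNJ8 were at 0 in both organoid libraries. Between P10 and P5 organoids 5 of the 10 mural genes could be tested, of which CNN1 was higher at P10 (20 reads against 0), ACTA2 and PDGFRB were lower and MYH11 and CSPG4 were within 2-fold. The summed mural level was lower at P10 than at P5 and NOTCH3 was higher, and the part of mural cells in the NOTCH3 values was not tested.

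NOTCH4, the receptor best known from endothelium, was the least counted receptor in both organoid libraries. It had 6.09 (5.09–7.28) scaled CPM in intestine, 1.83 (1.07–3.14) in muscle, 0.706 (0.404–1.23) in P5 and 2.75 (2.15–3.51) in P10 organoids, the P5 value from 12 reads. It was 8.62-fold (4.76–17.1) lower at P5 and 2.22-fold (1.62–3.05) lower at P10 than in intestine, which had the highest level, and 3.89-fold (2.08–7.92) higher at P10 than at P5. The muscle and P10 levels did not differ beyond counting error, and the P10 call against intestine did not hold in every scaling. The 10 endothelial markers summed to 65.8 scaled CPM in intestine, 124 in muscle, 4.71 in P5 and 3.13 in P10 organoids. KDR, TIE1, CLDN5 and ESAM had 0 reads in both organoid libraries, CDH5, the adhesion molecule of endothelial junctions, had 1 and 0, PECAM1 had 7 in each, and TEK had 29 and 20. Endothelial markers were therefore lower in both organoid libraries than in intestine, as NOTCH4 was. Between P10 and P5 organoids 4 of them could be tested, with 0 higher, 2 lower and 2 within 2-fold, among them VWF with 34 reads at P10 and 13 at P5. The part of endothelium in the NOTCH4 values was not tested.

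Summed over the 4 receptors, the level was 54.9 scaled CPM in intestine, 47.1 in muscle, 24.1 in P5 and 81.1 in P10 organoids. NOTCH2 had the largest share of receptor reads in intestine (67.2%), muscle (65.0%) and P5 organoids (49.0%), and NOTCH1 in P10 organoids (58.5%, 56.2–60.7), where NOTCH2 had 21.1%. NOTCH1 made up 10.5% (8.84–12.5) of receptor reads in intestine and 32.0% (27.6–36.6) at P5, so the receptor make-up of the P5 organoids lay between those of intestine and P10 organoids for both genes. The NOTCH3 share ranged from 11.2% in intestine to 22.2% in muscle. These are shares of RNA ends counted, and the plot of receptor and ligand shares shows them for each library.

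**Figure D2:**
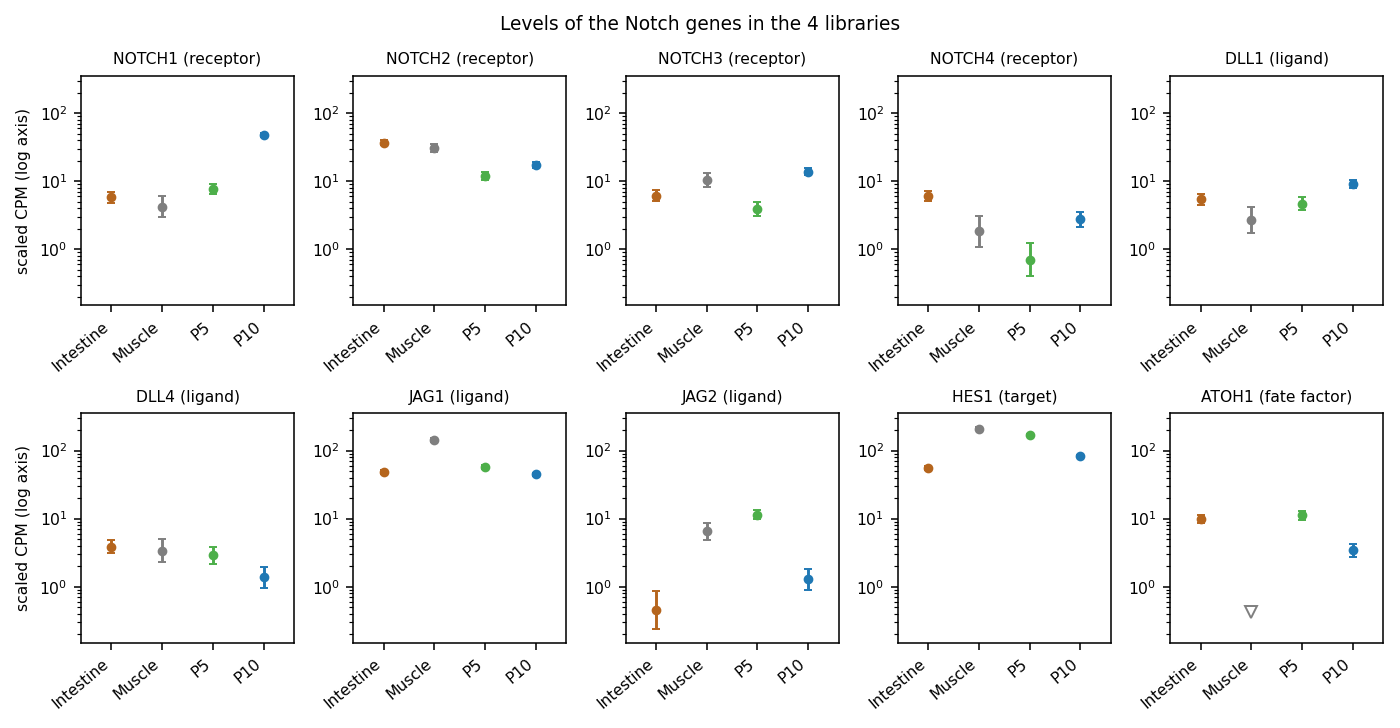
Scaled CPM (log axis) of each of the 10 genes in intestine, muscle, P5 organoids and P10 organoids, with 95% counting intervals as bars. NOTCH1 stands out at P10 (47.4) and JAG2 at P5 (11.5), and ATOH1 had 0 reads in muscle, drawn at 0.423, the level of 3 reads.

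**Figure D3:**
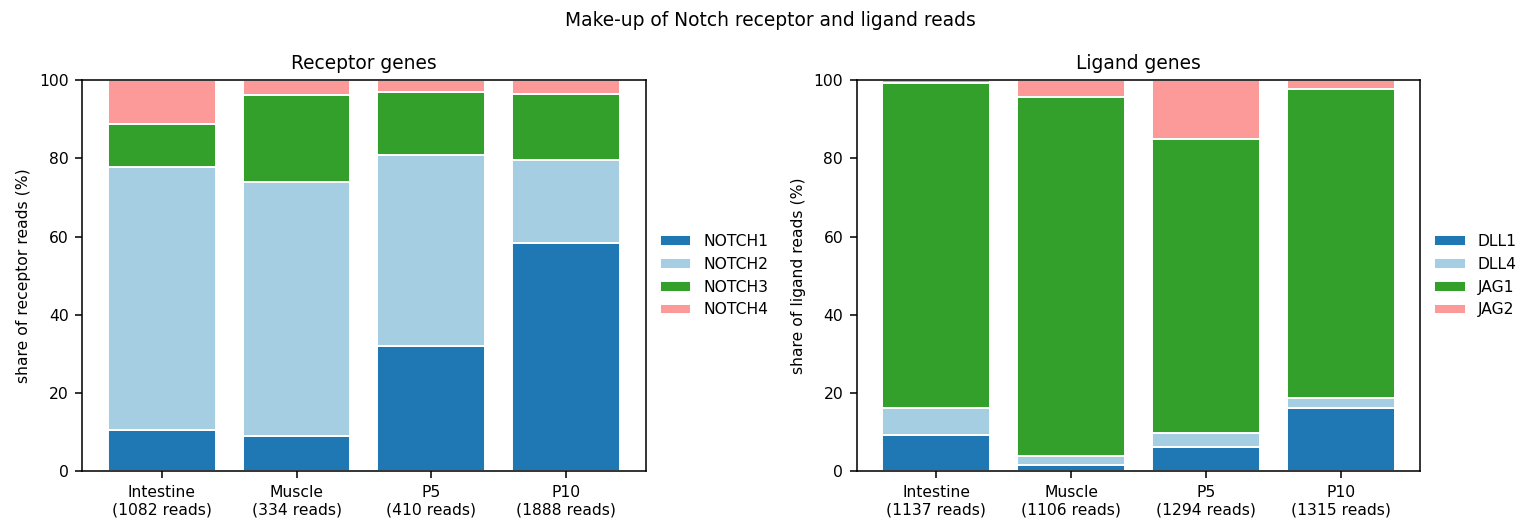
Share (%) of the reads on the 4 receptors and on the 4 ligands taken by each gene, in each library. NOTCH2 leads the receptors in all libraries but P10 organoids, where NOTCH1 has 58.5%, and JAG1 leads the ligands in all 4 libraries.

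Among the ligands, JAG1 was the main one by reads in every library, with 75.04% to 92.0% of ligand reads. Its levels were 47.9 (45.0–51.1) scaled CPM in intestine, 143 (135–152) in muscle, 57.1 (53.7–60.8) in P5 and 44.6 (42.0–47.4) in P10 organoids. Intestine and P10 organoids did not differ beyond counting error, and P5 organoids were 1.19-fold (1.09–1.31) above intestine. Muscle had the highest level, 2.99-fold (2.73–3.27) above intestine, though this fell under 2-fold when library totals set the scale.

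JAG2, the other Jagged ligand, had the largest fold of the 10 genes between P5 organoids and intestine, and its high level was not shared by P10 organoids. The levels were 0.456 (0.240–0.868) scaled CPM in intestine, 6.48 (4.86–8.65) in muscle, 11.5 (9.97–13.2) in P5 and 1.29 (0.902–1.84) in P10 organoids, from 9, 46, 195 and 30 reads, and all 4 were separated by more than counting error. JAG2 was 25.1-fold (12.97–55.8) higher at P5 than in intestine, a ratio that 0.619% of the genes tested reached, and 8.91-fold (6.04–13.6) lower at P10 than at P5. It took 15.1% of ligand reads at P5, 0.792% in intestine and 2.28% at P10.

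DLL1 and DLL4 are the ligands that secretory cells of the crypt present, and DLL4 also marks endothelial tip cells. DLL1 had 5.43 (4.49–6.56) scaled CPM in intestine, 2.68 (1.71–4.18) in muscle, 4.65 (3.73–5.79) in P5 and 9.19 (8.04–10.5) in P10 organoids. Intestine and P5 organoids did not differ beyond counting error, and P10 organoids were highest, 1.98-fold (1.52–2.59) above P5 organoids, just under the threshold. DLL4 had 3.85 (3.08–4.82) scaled CPM in intestine, 3.38 (2.27–5.03) in muscle, 2.88 (2.18–3.81) in P5 and 1.37 (0.973–1.94) in P10 organoids, with the lowest value at P10. It was 2.10-fold (1.32–3.39) lower at P10 than at P5 and 2.81-fold (1.83–4.38) lower than in intestine, and neither call held in every scaling. With the endothelial markers at 4.71 scaled CPM in P5 and 3.13 in P10 organoids, 5 of the 10 at 3 reads or fewer in each, DLL4 had 49 and 32 reads, and the part of endothelium in them was not tested. DLL1 thus differed from DLL4 in direction between the organoid libraries, and DLL1 took 6.11% of ligand reads at P5 and 16.3% at P10 against 3.79% and 2.43% for DLL4.

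HES1, the repressor switched on by Notch, was the most counted of the 10 genes in every library. Its levels were 55.5 (52.3–58.9) scaled CPM in intestine, 210 (200–221) in muscle, 170 (164–176) in P5 and 83.3 (79.7–87.1) in P10 organoids, and all were separated by more than counting error. Against intestine it was 3.05-fold (2.85–3.28) higher at P5 and higher by 1.39-fold to 1.62-fold (the 95% interval) at P10. P10 organoids were 2.04-fold (1.92–2.16) below P5 organoids, a call that passed just under 2-fold in some scalings. The muscle level was 3.79-fold (3.50–4.10) above intestine, a call that did not hold in every scaling.

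ATOH1, which commits crypt cells to the secretory lineage, was counted in intestine and organoids and had 0 reads in muscle, where 3 reads would be 0.423 scaled CPM. Its levels were 9.89 (8.60–11.4) scaled CPM in intestine, 11.1 (9.65–12.8) in P5 and 3.43 (2.76–4.27) in P10 organoids. Intestine and P5 organoids did not differ beyond counting error, with a P5 to intestine ratio of 1.12 (0.916–1.38). At P10 it was 3.24-fold (2.48–4.26) lower than at P5 and 2.88-fold (2.21–3.78) lower than in intestine. Against 3 reads in muscle, ATOH1 was at least 23.4-fold higher in intestine, at least 26.3-fold higher in P5 organoids and at least 8.12-fold higher in P10 organoids.

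Both genes were lower at P10 than at P5, ATOH1 by the larger fold. Per read of ATOH1 there were 5.62 (4.82–6.57) reads of HES1 in intestine, 15.3 (13.2–17.8) in P5 and 24.25 (19.4–30.7) in P10 organoids. Reads of DLL1 per read of ATOH1 were 0.549 (0.429–0.698) in intestine, 0.418 (0.317–0.546) at P5 and 2.675 (2.06–3.50) at P10. Of intestine and the organoids, the P10 organoids had the highest value of both ratios, and the intervals of intestine and P5 organoids overlapped for DLL1 per ATOH1 but not for HES1 per ATOH1.

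Secretory cell markers gave a mixed picture beside ATOH1. The 7 goblet genes summed to 6653 scaled CPM in intestine, 1403 at P5 and 1005 at P10, and MUC2, the gel-forming mucin, had 15017, 1666 and 4242 reads. Of 6 goblet genes tested between P10 and P5 organoids, 0 were higher and 2 lower, FCGBP with 3668 reads at P5 and 1925 at P10 and CLCA1 with 1366 and 78, while MUC2 and TFF3, a trefoil peptide with 8005 and 5869 reads, were within 2-fold. The 10 enteroendocrine genes summed to 660, 4.47 and 4.77, with CHGA, a granule protein, at 3219, 43 and 95 reads, most of the organoid sums, and the 5 tuft genes summed to 14.3, 3.94 and 0.386. ATOH1 was therefore at the intestine level in P5 organoids, where the enteroendocrine and goblet lists were lower than in intestine. These are levels of whole samples, and the epithelial list summed to 1892 scaled CPM in intestine and 8498 at P5. An equal ATOH1 level is thus not an equal level within the epithelium, which was not measured. Of the 10 enteroendocrine genes, 4 were at 0 reads at P5 and 7 at P10, and of the 3 tested between them 0 were higher and 1, PYY, was lower (10 reads and 0). Of 12 other secretory fate factors, 9 could be tested between P5 organoids and intestine, with 2 higher and 5 lower, and 7 between the organoid libraries, with 1 higher and 2 lower. Of all genes tested, 18.4% were higher and 27% lower in the former comparison and 16.6% and 19% in the latter. The factor higher at P10 was POU2F3, the tuft cell factor, with 13 reads in intestine, 3 at P5 and 46 at P10. The ratio of its scaled CPM between the organoid libraries was 11.2 (3.596–56.2). SPDEF, a goblet cell factor, had 154 reads in intestine, 60 at P5 and 35 at P10, and was 2.35-fold lower at P10 than at P5. PAX6, an enteroendocrine factor, had 57, 10 and 8 reads. KLF4, a factor of goblet and differentiated cells, had 243, 781 and 298 reads and was 3.73-fold higher at P5 than in intestine and 3.59-fold lower at P10 than at P5. FOXA2 had 280, 500 and 1118 reads. NEUROG3, the factor that starts the enteroendocrine lineage, had 28, 36 and 51 reads, and NEUROD1, which follows it, had 47 in intestine and 0 in both organoid libraries. In the same libraries the enterocyte, stem cell and proliferation lists also differed between P5 and P10, as given above, and their part in the values of NOTCH1, HES1 and ATOH1 was not tested.

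Counted over the 10 genes, P5 organoids against intestine gave 2 higher (JAG2, HES1), 2 lower (NOTCH2, NOTCH4) and 6 within 2-fold. Of 17783 genes tested, 18.4% were called higher and 27% lower, and the median log2 ratio was -0.03 over the 10 genes and -0.08 over all genes. P10 organoids against intestine gave 3 higher (NOTCH1, NOTCH3, JAG2), 4 lower (NOTCH2, NOTCH4, DLL4, ATOH1) and 3 within 2-fold, beside 22% higher and 31.6% lower of all 17803 genes tested, with medians of 0.24 and -0.12. P10 against P5 organoids gave 3 higher (NOTCH1, NOTCH3, NOTCH4) and 4 lower (DLL4, JAG2, HES1, ATOH1), beside 16.6% higher and 19% lower of 16131 genes, with medians of 0.09 and 0.05. These are small counts next to the backgrounds, and with 10 genes a share near the background is no result about the pathway. The 3 receptors called between the organoid libraries were all higher at P10. The 2 ligands called were both lower, but with library totals as the scale DLL1 was called higher (log2 ratio 1.06) and DLL4 was within 2-fold (-0.997).

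Some of these calls were firmer than others by counting error and scaling. The whole 95% interval lay past 2-fold for all 4 calls of P5 organoids against intestine, for 2 of 7 of P10 organoids against intestine (NOTCH1, ATOH1) and for 5 of 7 between the organoid libraries (NOTCH1, NOTCH3, NOTCH4, JAG2, ATOH1). Over 6 ways of scaling, all 4, 4 of 7 and 5 of 7 calls were kept. Those lost under at least 1 scaling were NOTCH2, NOTCH4 and DLL4 in P10 organoids against intestine, and DLL4 and HES1 in P10 against P5 organoids. The 2 comparisons with intestine share that library.

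**Figure D4:**
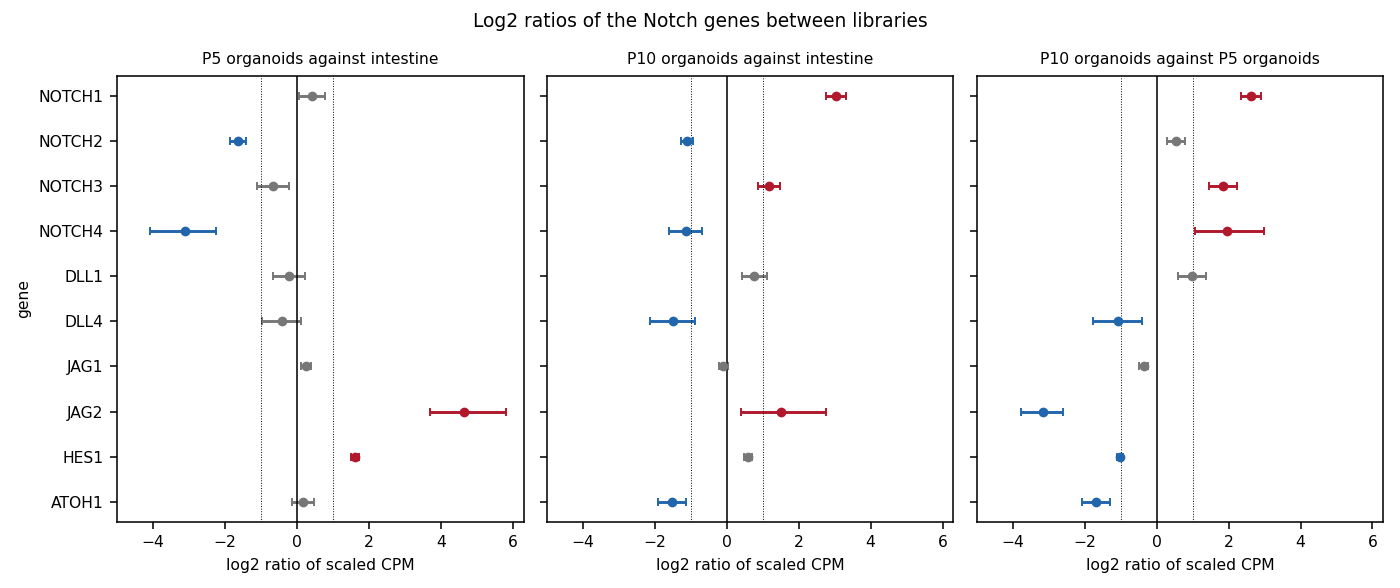
Log2 ratio of scaled CPM for each of the 10 genes in P5 organoids against intestine, P10 organoids against intestine and P10 against P5 organoids, with 95% counting intervals as bars and the 2-fold limits as dotted lines. Between P10 and P5 organoids NOTCH1, NOTCH3 and NOTCH4 lie above the upper limit and DLL4, JAG2, HES1 and ATOH1 below the lower.

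Muscle served as the tissue without crypts. Against it, intestine had 3 of the genes higher (NOTCH4, DLL1, ATOH1) and 3 lower (JAG1, JAG2, HES1), beside 34.1% higher and 23% lower of 17559 genes tested. P5 organoids had 1 higher (ATOH1) and 4 lower (NOTCH2, NOTCH3, NOTCH4, JAG1), beside 31.4% and 29% of 16840 genes. P10 organoids had 3 higher (NOTCH1, DLL1, ATOH1) and 4 lower (DLL4, JAG1, JAG2, HES1), beside 32.8% and 30.1% of 16771 genes. NOTCH1 was 11.2-fold (7.81–16.7) and DLL1 3.43-fold (2.14–5.81) higher in P10 organoids than in muscle, and JAG2 was 14.2-fold (6.87–33.01) lower in intestine than in muscle. Using library totals in place of TMM scaling moved the median of all genes against muscle by 1.01 (intestine), 1.19 (P5) and 1.26 (P10) on the log2 scale, and the share of called genes that were higher from 59.7% to 83.2%, 52.0% to 76.4% and 52.1% to 75.4%. Of the calls against muscle, 3 of 6, 1 of 5 and 4 of 7 were kept in all 6 scalings, among them ATOH1 in each comparison.

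The rest of the pathway was followed through 46 genes in 7 lists. P5 organoids against intestine had 12 of 42 tested genes higher (28.6%) and 9 lower (21.4%), P10 organoids against intestine 12 and 10 of 42, and P10 against P5 organoids 8 (20.5%) and 5 (12.8%) of 39, with list medians of 0.32, 0.38 and 0.12 on the log2 scale. The shares of all genes called higher and lower were 18.4% and 27%, 22% and 31.6%, and 16.6% and 19%, and the single lists below, of 3 to 10 genes each, are to be read against these shares as descriptions only. For these 3 comparisons the counts over the 6 scalings ranged from 7 to 14 higher and 4 to 10 lower.

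Several genes that modify ligands and receptors differed between the libraries. NEURL1B, a ubiquitin ligase that acts on ligands, had 1461 reads in intestine, 11281 at P5 and 3454 at P10. It was 8.96-fold (8.48–9.47) higher at P5 than in intestine and 4.48-fold (4.31–4.65) lower at P10 than at P5. NEURL1, its relative, was 3.92-fold lower at P5 than in intestine. Of the 4 ligand activation genes, 2 were higher and 1 lower in that comparison, and 0 higher and 1 lower between P10 and P5 organoids, small counts beside the same shares of all genes. Of the 3 other ligands, DLK2 had 154 reads in intestine, 56 at P5 and 38 at P10, and the 2 that could be tested were both lower at P5 than in intestine. Of the Fringe enzymes, which add sugars to Notch receptors and alter which ligand they answer to, LFNG had 401 reads in intestine, 698 at P5 and 2447 at P10 and was 2.56-fold (2.35–2.79) higher at P10 than at P5. MFNG had 224 reads in intestine and 0 in both organoid libraries. With 0 set to 3 reads, it was at least 64.4-fold lower at P5 and at least 88.2-fold lower at P10. These bounds differ only through the scaled library totals. POFUT1, which adds the fucose that Fringe enzymes extend, had 737, 212 and 561 reads. Of 5 glycosylation genes tested between P5 organoids and intestine, 1 was higher and 2 lower, and of 4 between the organoid libraries 1 was higher.

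Of the 9 genes that cut the receptor, 2 were higher and 1 lower at P5 than in intestine, beside 18.4% and 27% of all genes. APH1B, a γ-secretase subunit, was 13.3-fold (11.3–15.8) higher at P5 and 7.24-fold higher at P10 than in intestine, and APH1A, its relative, had 1396, 2651 and 1879 reads. FURIN, the protease that cuts the receptor during its passage to the surface, was 2.70-fold higher at P10 than at P5. In the nuclear complex of 7 genes, MAML2, a coactivator of the Notch complex, was 4.11-fold higher at P5 than in intestine, and MAML3, another coactivator, was 2.02-fold higher at P10 than at P5, at the threshold. RBPJ, the DNA-binding partner, had 1248 reads in intestine, 623 at P5 and 1057 at P10 and was 1.73-fold lower at P5 than in intestine, within the threshold.

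Of 10 inhibitors and turnover genes, 3 were higher and 1 lower at P5 than in intestine, and 3 were higher and 2 lower at P10 than at P5, beside 18.4% and 27%, and 16.6% and 19%, of all genes. DTX1, a Deltex ubiquitin ligase, had 350 reads in intestine, 13 at P5 and 52 at P10, and was 23.2-fold (13.4–44.0) lower at P5 than in intestine. DTX4 had 339, 777 and 2757 reads and DTX2 101, 191 and 786, so that these Deltex members were ordered the opposite way to DTX1 against intestine. DTX3L had 81, 63 and 6 reads. NUMBL, a relative of the Notch inhibitor NUMB, had 78, 182 and 20 reads, 12.5-fold (7.84–20.9) lower at P10 than at P5.

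Of 8 HES and HEY factors other than HES1, 5 could be tested between P5 organoids and intestine, with 3 HES genes higher and 2 HEY genes lower. The shares of all genes were 18.4% and 27%. HES2, HES4 and HES6 were higher than in intestine in both organoid libraries, by 4.98-fold (4.33–5.76), 3.39-fold and 2.97-fold at P5, and none of the 3 was called between the organoid libraries. HES6 is known to oppose HES1 rather than to act as a repressor of the same kind. HEY2 and HEYL, targets known from vessels, had 31 and 17 reads in intestine, 94 and 62 in muscle and 0 in both organoid libraries. With 0 set to 3 reads, they were at least 8.91-fold and at least 4.88-fold lower at P5 than in intestine. HES5 had 0 reads in all 4 libraries, and HES7 and HEY1 had 0 in both organoid libraries and too few in the tissues to be tested. These HES and HEY counts were the same in all 6 scalings. The HEY genes were at 0 in the organoid libraries, where 5 of the 10 endothelial markers had 3 reads or fewer and 5 had more. The part of endothelium in the HEY values was not tested.

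**Figure D5:**
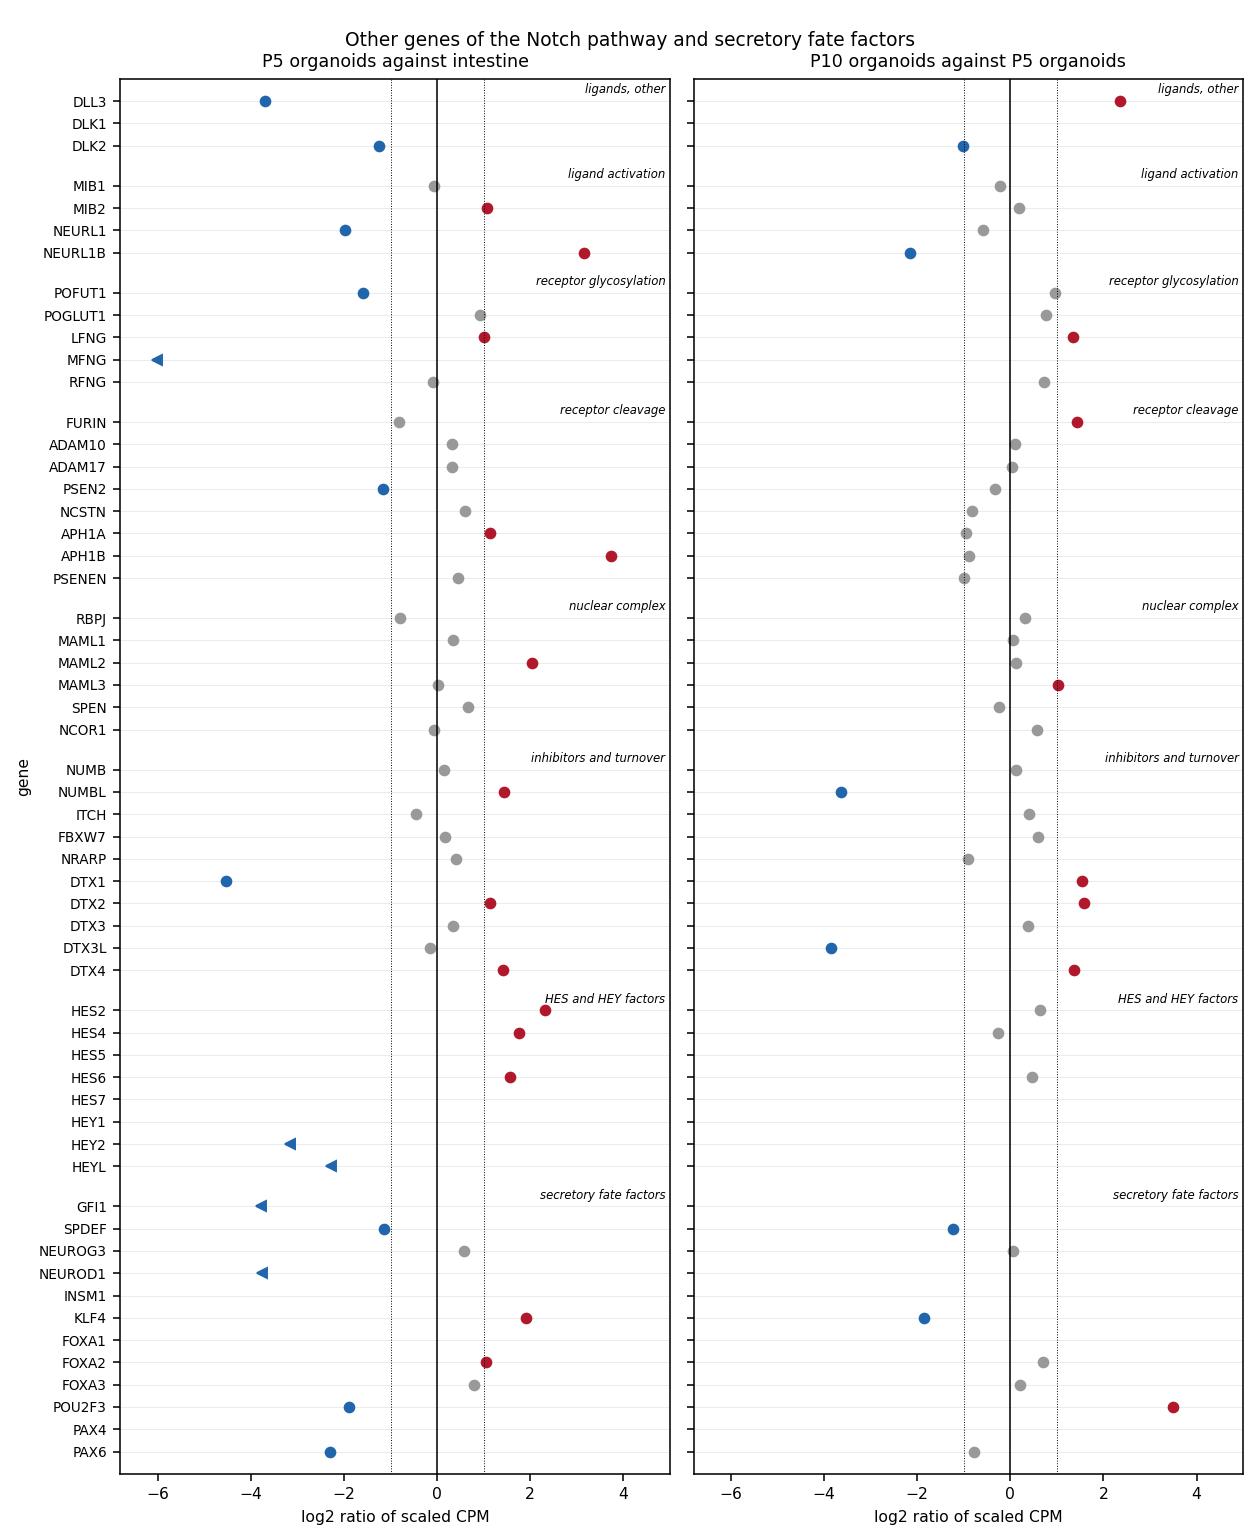
Log2 ratio of scaled CPM of most of the other pathway genes and the secretory fate factors, 1 row per gene grouped by role, for P5 organoids against intestine and P10 against P5 organoids. Red points are at least 2-fold higher, blue points at least 2-fold lower, grey points within 2-fold, genes under 10 reads in both libraries have no point, and triangles mark genes with 0 reads in the first-named library, set to 3, such as MFNG and HEY2 at P5.

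Other rows of the files were ranked by how near their profile over the 4 libraries lay to that of each gene, as the Euclidean distance of centred log2 scaled CPM. Among 12311 rows with enough reads, DLL1, JAG1, DLL4 and NOTCH2 had many near neighbours (291, 288, 140 and 94 rows within 0.5). The nearest were MBD1 for DLL1, TCEAL4 for JAG1, PPEF1 for DLL4, AES for NOTCH2, USP1 for HES1 and CAMTA2 for NOTCH3. NOTCH1 had 4 rows within 0.5, the nearest being CEP131 with 24 reads in intestine, 6 in muscle, 23 at P5 and 193 at P10. NOTCH4 had 3, led by SIRPA, and JAG2 had none, its nearest row being SLC35E4 at 0.565. ATOH1 was left out because it had 0 reads in muscle.

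The files do not name their annotation, and reads that aligned in several places were included, so the counts of genes with close copies or neighbours are less certain. In the RefSeq table of assembly ARS-UCD2.0, NOTCH2 and JAG1 overlap pseudogenes, NOTCH3 lies near another and NOTCH1 lies beside a long noncoding RNA gene, none of which has a row in the files. NOTCH4 lies beside PBX2, which had 691 reads in intestine, 440 in muscle, 282 at P5 and 425 at P10, and JAG2 beside NUDT14, which had 268, 41, 493 and 481. Over all libraries neither neighbour had the order of levels of the gene beside it, but this rested on the place of muscle. Among intestine, P5 and P10 organoids, PBX2 had the order of NOTCH4 and NUDT14 that of JAG2. The part of neighbouring genes in these counts was not tested. DLL1, DLL4, HES1 and ATOH1 had no other gene within 5000 bases.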

How the data were processed

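RNA of intestine, muscle, P5 organoids and P10 organoids was extracted with Trizol, and 500 ng was used per QuantSeq 3′ library, read as 75-base single ends. The authors aligned reads with Bowtie2 and counted unique and multiple alignments with Bedtools. The deposited values are raw read counts, whole numbers that the authors did not normalise. The genome build, annotation and strand of counting are not given in the sources used here. Each row was treated as a gene.

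Counts were scaled by TMM in edgeR 4.0.16 (R 4.3.3), and levels, folds and intervals were computed in Python 3.11.15 with scipy 1.17.1. The submitters' processing notes name edgeR and the study names quantile normalisation. The latter was used as an alternative only, since it gives 1 read unlike values in different libraries and several of the 10 genes had few reads. No test between conditions was possible, as each had 1 library. The call rule was checked on simulated data. A fold against 0 reads was computed against 3 reads per library and is an approximate lower bound, which leaves out the counting error of the other count. Other scalings, thresholds and read minimums, and rows summed by symbol were tried.

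The genes named are all 10, defining cell markers, and of each other list up to 3 with the largest ratio in P5 organoids against intestine and in P10 against P5 organoids with a minimum of 50 reads where it was higher, plus the 3 rows nearest to each gene in profile. Other names (TIE1, CLDN5, MCAM, NEUROG3, NEUROD1, HEY1, HEY2, HEYL, HES5, HES7, DLK1, ALPI, CSPG4, PYY, VWF, POU2F3, KCNJ8) were chosen after their values were seen. The pathway lists were ligands, ligand activation, glycosylation, cleavage, nuclear complex, inhibitors and turnover, and HES and HEY factors. Secretory fate factors and 12 cell marker lists were also used. The genes and lists were chosen with earlier results of these data known. Some genes of these lists are counted with them but are not reported here by name.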

Additional observations from a re-analysis of the deposited data

Results flagged for a closer look

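For 4 of the 10 genes the P5 and P10 organoids lay on opposite sides of intestine, which is 1 shared library, and the difference was not tested since there are no replicates. NOTCH3 was lower at P5 (log2 ratio to intestine -0.66) and higher at P10 (1.17), both beyond counting error, with a P10 to P5 log2 ratio of 1.83. For DLL1 the log2 ratios to intestine were -0.22 and 0.76, and the P10 to P5 ratio was 0.98. For JAG1 they were 0.25 and -0.10, with -0.36 between the organoid libraries. For ATOH1 they were 0.17 and -1.53, with -1.70 between them. In DLL1, JAG1 and ATOH1, 1 of the 2 intervals against intestine included equal levels, and the sign of the DLL1 ratio at P5 and of the JAG1 ratio at P10 changed with the scaling.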

How the results depend on the processing

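No paired analysis was possible because each condition has 1 library, and for the same reason no replicate could be left out. Of 120 counts of called genes recomputed under the 10 alternatives, 92 stayed within 1.5 times the value reported, and of 300 single log2 ratios 218 moved by less than counting error, 82 moved further and 0 of the calls changed direction. Upper-quartile and median-of-ratios scaling, no read minimum and rows summed by symbol moved 0 counts past that limit. Within it, DLL1 was no longer called higher in intestine than in muscle under upper-quartile and median-of-ratios scaling. Under upper-quartile scaling NOTCH2 was called lower in P10 organoids than in muscle (log2 ratio -1.01). Dropping the read minimum could change no call, since all 10 genes already passed it in every comparison. Summing rows by symbol left the reads of each gene unchanged, as each had 1 row. The counts under these 2 settings are among the 92, so they are no evidence of stability. With a 4-fold threshold, the higher and lower counts became 1 and 1 for P5 organoids against intestine, 1 and 0 for P10 organoids against intestine, 1 and 1 for P10 against P5 organoids and 1 and 1 for intestine against muscle, and the lower counts 0 for P5 and 1 for P10 organoids against muscle. A 1.5-fold threshold gave 4 higher for P5 organoids against muscle, and a minimum of 50 reads gave 2 lower for P10 organoids against muscle. With library totals, the lower counts were 2 for P10 organoids against intestine (DLL4, ATOH1) and 2 against P5 organoids (JAG2, ATOH1), and against muscle intestine had 6 higher and 1 lower, P5 organoids 4 and 0, and P10 organoids 5 and 1. Totals without RN18S1 gave 2 lower for P10 organoids against intestine, and against muscle 4 higher and 0 lower for P5 and 5 and 1 for P10 organoids. Quantile normalisation gave 2 lower for P10 organoids against intestine (NOTCH2, ATOH1), 2 against P5 organoids (JAG2, ATOH1) and 2 against muscle (JAG1, JAG2). Among all called genes, quantile normalisation moved the higher share from 40.5% to 52.3% for P5 and from 41.1% to 51.7% for P10 organoids against intestine, and totals without RN18S1 moved it to 77.9%, 71.7% and 70.2% for intestine, P5 and P10 organoids against muscle. Ratios within 2-fold changed sign with the scaling for DLL1 and DLL4 in P5 organoids and JAG1 in P10 organoids against intestine, and against muscle for NOTCH1, NOTCH3 and DLL4 in intestine, DLL4 and HES1 in P5 and NOTCH2 in P10 organoids. The lower read counts, such as 9 for JAG2 in intestine and 12 for NOTCH4 at P5, set the widest intervals.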

Other observations

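A ligand-activating enzyme and a ligand relative set muscle apart from the other libraries. MIB1, a ubiquitin ligase that activates Notch ligands, had 5835 reads in muscle, 126 in intestine, 103 in P5 and 121 in P10 organoids, and was 129-fold (108–155) lower in intestine than in muscle. DLK1, a Delta-like protein known from muscle and fat precursors, had 1304 reads in muscle and 0 in the other libraries. Muscle had the highest level of both genes in all 6 scalings, while the order of MIB1 among the other libraries changed with the scaling. The values come from 1 muscle library with a high share of RN18S1 and were not tested.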
